A study of Mus musculus with 11 samples.

Results

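The digestive enzymes of starch and fat were followed in the pancreas and epididymal adipose tissue of mice with acute pancreatitis induced by alcohol on a background of obesity (OA-AP): 9 genes, chosen by symbol, of the 54532 listed in the pancreas count table and the 46078 listed in the adipose table. They are the amylases Amy1, Amy2b and Amy2a5, pancreatic lipase Pnlip, its relatives Pnliprp1 and Pnliprp2, colipase Clps, the bile salt-stimulated lipase Cel and the secretory phospholipase Pla2g1b. All 9 were listed in both tables. RNA was sequenced from wild type male mice labelled as C57BL/6 (C57BL/6J in the methods of the study) and 16 weeks old. Control mice (labelled Control) ate chow with 10% of its energy as fat and received saline. OA-AP mice (labelled Model) ate a diet with 60% of its energy as fat for 12 weeks and then received ethanol at 2 g/kg into the peritoneum 2 times, 1 h apart, and tissue was taken 12 h after the first injection. Diet, ethanol and pancreatitis therefore cannot be told apart in this comparison, and no group carried an engineered allele. The pancreas gave 2 control and 3 OA-AP libraries, and adipose tissue gave 3 of each.

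Pancreatic acinar cells make these enzymes, store them in zymogen granules and release them into the duct, and leakage of amylase and lipase into blood is the routine laboratory sign of acute pancreatitis. Amylases cut starch into short sugars. Pancreatic lipase cuts dietary triglycerides and needs colipase to hold it on fat droplets coated with bile salts. Cel also cleaves cholesterol and vitamin esters, Pla2g1b cleaves phospholipids after trypsin has removed its propeptide, and Pnliprp2 cleaves galactolipids and phospholipids as well as triglycerides. Pnliprp1 resembles pancreatic lipase but has little known triglyceride-cleaving activity. Acinar cells are known to shift their mix of enzymes with the fat and starch content of the diet.

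The sampled tissues matched their labels for the defining markers. In the pancreas the 10 acinar marker genes held between 30.9% and 38.7% of all counts, and in adipose tissue the 7 adipocyte markers held between 2.99% and 4.23%. Library totals ran from 14188832 to 17238919 counts in the pancreas and from 20825177 to 27928097 in adipose tissue. One adipose library, Control replicate 2, stood apart: the acinar markers gave 5013 CPM (counts scaled to a fixed library total) there and between 0.42 and 2.77 CPM in the other 5 adipose libraries. The adipose results for the 9 genes are therefore given with and without that library. By library totals, summed pancreas islet markers rose from between 778 and 841 CPM in control to between 1661 and 2166 CPM in OA-AP. The leukocyte markers rose from between 13.1 and 32.5 CPM to between 39.6 and 113 CPM. On this scaling the median tested gene also rose, by 0.75 on the log2 scale. With the TMM scaling of the tests below, 2 of 8 islet markers were called higher and 1 lower (16.2% and 13.5% of all tested genes). Of the 7 tested leukocyte markers, 0 were called. The part of islet cells and leukocytes in the results below was not tested. In bulk tissue fewer acinar cells and less RNA per acinar cell cannot be told apart.

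The amylase genes lie side by side on chromosome 3 (GRCm38), 8 genes within 459 kb on the minus strand, and several are near-copies of each other. Amy2b (chr3:113147656-113156727) is annotated as an unprocessed pseudogene, Amy2a5 (chr3:113247178-113258837) and Amy1 (chr3:113555710-113606699) as protein-coding. The copies decide how far a count can be given to a single gene, so a stretch of 150 coding bases is shown for 4 of them, read from the reference genome at bases 687 to 836 of the Amy2a5 coding sequence. In Amy2a5 the stretch spans the junction of exons 4 and 5 of 10, between chr3:113254043 and chr3:113255858 on the minus strand. Capitals mark bases that differ from Amy2a5.
Amy2a5: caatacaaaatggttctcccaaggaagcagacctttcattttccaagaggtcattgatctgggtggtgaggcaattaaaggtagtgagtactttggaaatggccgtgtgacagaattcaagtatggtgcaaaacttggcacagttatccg
Amy2a3: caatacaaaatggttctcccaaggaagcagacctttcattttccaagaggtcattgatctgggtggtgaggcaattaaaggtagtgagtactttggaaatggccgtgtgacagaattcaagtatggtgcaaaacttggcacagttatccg
Amy2b: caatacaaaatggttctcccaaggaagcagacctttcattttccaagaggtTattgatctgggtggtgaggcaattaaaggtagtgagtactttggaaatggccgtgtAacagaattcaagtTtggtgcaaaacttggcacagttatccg
Amy1: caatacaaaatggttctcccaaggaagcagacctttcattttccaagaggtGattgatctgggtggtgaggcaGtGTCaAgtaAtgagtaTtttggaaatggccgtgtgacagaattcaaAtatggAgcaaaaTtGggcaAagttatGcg

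Amy2a3 differed from Amy2a5 at 0 bases of the stretch, Amy2b at 3 and Amy1 at 14. Over whole reference transcripts, Amy2a2, Amy2a3 and Amy2a4 were 100% identical. In the best local alignment, Amy2a5 was 97.9% identical to Amy2b over 1563 aligned positions and 88.8% to Amy1 over 1601. The Amy2a5 transcript has 3715 bases. Of all windows of 150 bases in a transcript, 100% were found unchanged in another gene for Amy2a2, Amy2a3 and Amy2a4, 94.2% for Amy2a1, 44.8% for Amy2a5, 3.92% for Amy2b and 0% for Amy1. The counts of Amy2a1, Amy2a2, Amy2a3 and Amy2a4, and in part those of Amy2a5, are therefore uncertain as values of single genes. Those of Amy1 and the lipases are not affected by exact copies. Pnlip, Pnliprp1 and Pnliprp2 also sit together, within 107 kb on the plus strand of chromosome 19. Their transcripts were only 67.6% to 69.6% identical over the locally aligned positions and shared 0 such windows. Clps is on chromosome 17, Cel on chromosome 2 and Pla2g1b on chromosome 5. Clps is overlapped by Mir6969 and Cel, on the other strand, by Gm13381, which gave at most 0.0211% and 0.223% as many counts as these genes in the pancreas.

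The lipolytic enzymes held less of the OA-AP pancreas transcriptome. Together the 9 genes took 16.5% ± 0.316 of all pancreas counts in control (SD, n = 2) and 10.5% ± 1.46 in OA-AP (SD, n = 3). The control libraries were at 16.3% and 16.7%, and the OA-AP libraries at 10.8%, 11.8% and 8.88%, with no overlap. The 6 lipase, colipase and phospholipase genes accounted for most of the gap, at 14.7% ± 0.328 in control and 9.04% ± 1.25 in OA-AP. The 3 amylases among the 9 genes held 1.85% and 1.83% in control, and 1.80%, 1.44% and 1.06% in OA-AP, without overlap. All 8 amylase genes of the cluster together held 3.29% and 3.03% in control, and 3.24%, 2.7% and 1.89% in OA-AP, so that for this sum the groups overlapped. Counting error was small against these gaps, since the widest 95% Clopper-Pearson interval of a pancreas share was ± 0.0193 percentage points.

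**Figure D1:**
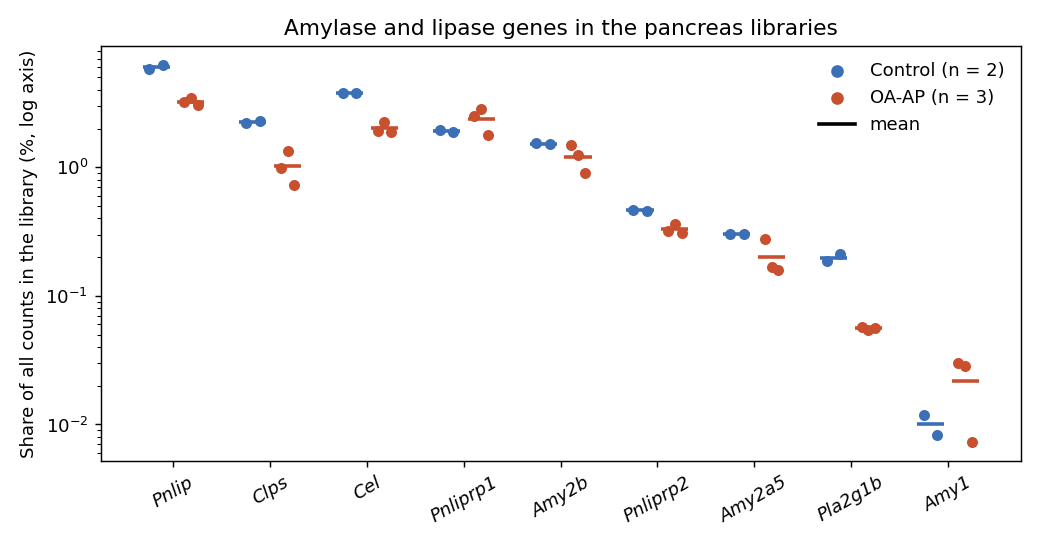
Share of all counts of a pancreas library (%, log axis) held by each of the 9 genes, with 1 point for each library (blue, Control, n = 2; orange, OA-AP, n = 3) and a bar at the group mean. The points of Pnlip, Clps, Cel, Pnliprp2, Pla2g1b, Amy2b and Amy2a5 do not overlap between groups, though the highest OA-AP point of Amy2b is only just below the controls. Those of Pnliprp1 and Amy1 overlap.

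With TMM scaling and edgeR's quasi-likelihood test, all 9 passed the filter on low counts, and 7 of the 9 were called lower in OA-AP and 0 higher (0 also in DESeq2 and at an unadjusted p under 0.05, but 1, Amy1, with the replicate number as a block or without Model replicate 3), where a call needs a Benjamini-Hochberg adjusted p under 0.05 over all genes tested and a fold change of at least 1.5. Of the 12884 pancreas genes tested, 13.5% were called lower and 16.2% higher. The exceptions were Amy1 and Pnliprp1. By share of the library, every OA-AP library lay below both control libraries for 7 of the 9 genes, against 8.69% of all genes tested. The scaling changed these calls. Scaled by totals instead, the median gene moved from a log2 fold change of 0.04 to 0.75, 4 of the 9 genes (Pnlip, Clps, Cel and Pla2g1b) were still called lower, 3.93% of all genes were called lower and 45.4% higher. Relative to the median gene, which removes the shift between scalings by construction, the change was −1.66 for Pnlip and −0.45 for Pnliprp1 on the log2 scale with TMM.

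**Figure D2:**
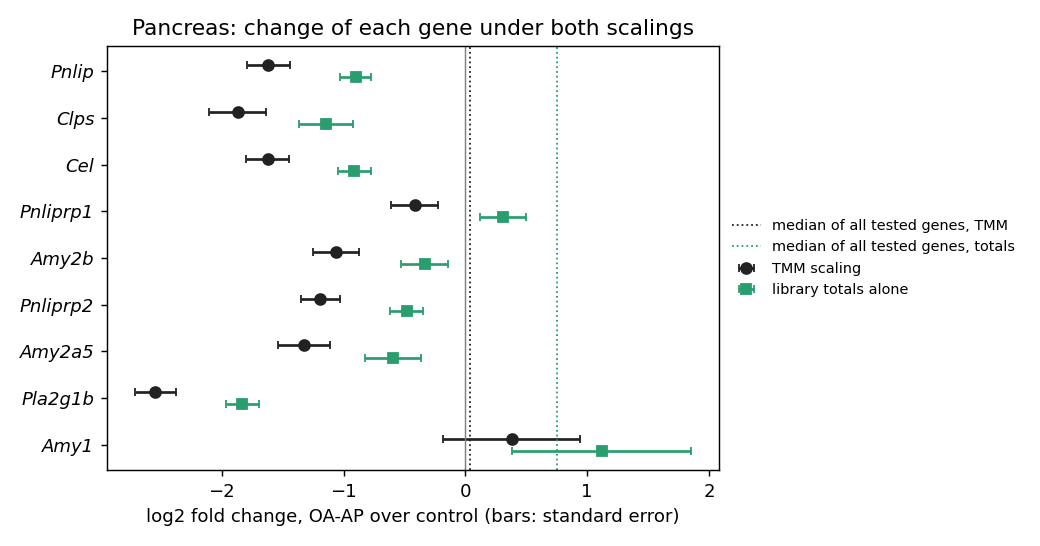
Log2 fold change of each gene in the pancreas, OA-AP over control, with its standard error, under TMM scaling (black circles) and with library totals alone (green squares); dotted lines mark the median of the 12884 tested genes under each. Pla2g1b lies farthest to the left, at −2.55 with TMM and −1.83 with library totals, and Pnliprp1 passes from −0.41 to 0.31.

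Pnlip, the main triglyceride lipase, was the most abundant of the 9 per kilobase, at 40727 ± 2091 CPM per kb in control pancreas. It held 5.83% and 6.27% of the counts in control, and 3.21%, 3.46% and 3.04% in OA-AP. Every OA-AP library was well below both controls, and the log2 fold change was −1.62 (SE 0.18, adjusted p = 0.000566 in edgeR's quasi-likelihood test). Colipase, which anchors Pnlip to fat, fell as well. Clps held 2.21% and 2.28% in control, and 0.985%, 1.33% and 0.728% in OA-AP. Its groups did not overlap, its OA-AP libraries spread more than those of Pnlip, and its log2 fold change was −1.87 (SE 0.23, edgeR adjusted p = 0.000989).

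The relatives of pancreatic lipase differed from it and from each other. Pnliprp1 held 1.96% and 1.88% of the counts in control, and 2.5%, 2.85% and 1.79% in OA-AP. By these shares Model replicate 3 was below both controls and the other OA-AP libraries above them. With TMM scaling every OA-AP library was below both controls, at 18977, 23139 and 16168 CPM against 24794 and 27008 CPM. The log2 fold change was −0.41 (SE 0.19, edgeR adjusted p = 0.134) with TMM but 0.31 (edgeR adjusted p = 0.189) with library totals alone. No change in either direction was called for Pnliprp1. Pnliprp2 held 0.466% and 0.458% in control, and 0.320%, 0.363% and 0.310% in OA-AP. It fell by 1.19 on the log2 scale with TMM (SE 0.16, edgeR adjusted p = 0.00129) and by 0.48 with library totals alone, which is below the 1.5-fold threshold.

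Cel and Pla2g1b, which act on other ester bonds of dietary lipids, both fell. Cel held 3.80% and 3.81% of the counts in control, and 1.92%, 2.26% and 1.89% in OA-AP, a log2 fold change of −1.62 (SE 0.18, edgeR adjusted p = 0.000547). Pla2g1b had the largest change of the 9. It gave 27498 and 30300 counts in control, and 8306, 7638 and 9712 in OA-AP, which is 0.199% ± 0.0169 of the library against 0.0559% ± 0.00184. The OA-AP values lay close together and far below the control values, with a log2 fold change of −2.55 (SE 0.17, edgeR adjusted p = 9.63e-05).

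Among the amylases, Amy2b carried the most counts. It held 1.53% and 1.52% of the library in control, and 1.5%, 1.24% and 0.896% in OA-AP. The highest OA-AP library was only just below the controls. Amy2b fell by 1.06 on the log2 scale with TMM (SE 0.19, edgeR adjusted p = 0.00431), but the change was not called with library totals alone (−0.33, adjusted p = 0.178) or without pancreas Control replicate 2 (−0.98, adjusted p = 0.0646). Amy2a5 held 0.303% and 0.305% in control, and 0.277%, 0.168% and 0.159% in OA-AP. Its log2 fold change was −1.33 with TMM (SE 0.21, edgeR adjusted p = 0.00283) and −0.59 with library totals alone (adjusted p = 0.0575).

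Amy1, the amylase known from salivary gland and liver, was a minor transcript in pancreas. It gave 1746 and 1194 counts in control, and 4361, 4015 and 1262 in OA-AP. Model replicates 1 and 2 were above both controls, and Model replicate 3, scaled to its depth, was below both, at 73.2 CPM against 118.6 and 83.03 CPM by library totals, so that the OA-AP libraries lay on both sides of the controls. Over all libraries its log2 fold change was 0.38 (SE 0.56) and was not called (edgeR adjusted p = 0.642). Without Model replicate 3 it was called higher at 0.72 (edgeR adjusted p = 0.000247). With the replicate number as a block it was called higher at 0.78 (edgeR adjusted p = 0.000534). The block fit is not a separate result, since only Model replicate 3 has number 3 and its block takes up its whole value. The 1 gene that overlaps Amy1, Rnpc3 on the same strand, gave between 4.26% and 9.19% as many counts in the pancreas. Whether reads of Rnpc3 are among the Amy1 counts was not tested. Of the 7 salivary gland markers, 6 were at 0 in every pancreas library.

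The other 5 amylase genes of the cluster gave 0 calls in edgeR in the pancreas, while 3 (Amy2a2, Amy2a3 and Amy2a4) had an unadjusted p under 0.05. Amy2a2 (log2 fold change −0.54, edgeR adjusted p = 0.0351) missed the call only on the fold change threshold. DESeq2 called 1, Amy2a3, lower at −0.73. Amy2a3 gave 81437 and 76867 counts in control, and 60831, 102516 and 80670 in OA-AP. Amy2a4, whose reference transcript is identical, gave 55331 and 61249 in control, and 61993, 40259 and 18810 in OA-AP. Amy2a1 gave 65386 and 24272 counts in control and 70934, 26278 and 33249 in OA-AP, so that replicates of 1 group differed by more than the groups did. Amy2a2 gave between 9702 and 13674 counts, and the pseudogene Amy2-ps1 between 2 and 37. Amy2b held between 45.9% and 50.1% of all amylase counts in every pancreas library, while Amy2a3 ranged from 12.99% to 26.7% and Amy2a4 from 5.76% to 14.1%.

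**Figure D3:**
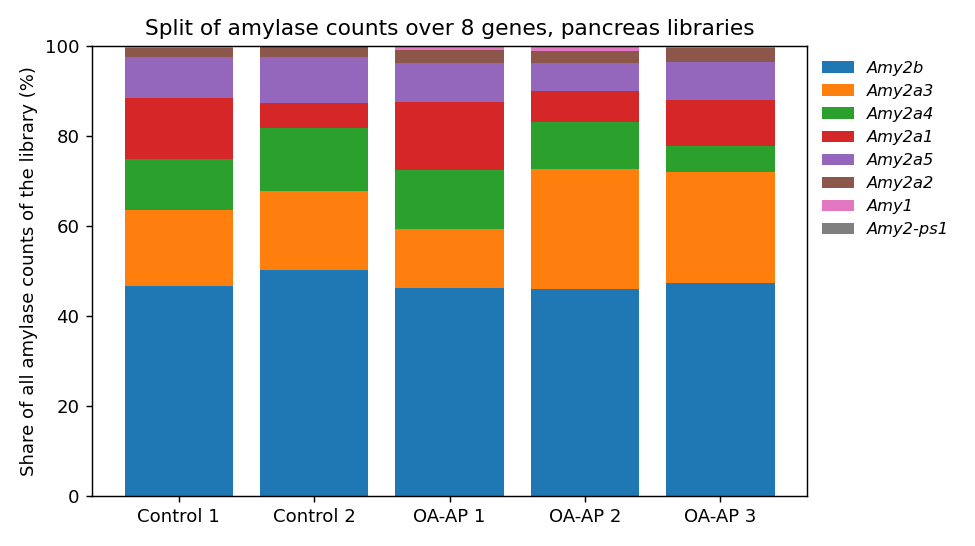
Share of all amylase counts (%) that each of the 8 amylase genes took in each pancreas library, stacked to 100%. Amy2b takes between 45.9% and 50.1% of each bar, and the segments of Amy2a1, Amy2a3 and Amy2a4 vary within groups.

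Ratios of counts within a library do not depend on any scaling, so each gene was also set against Pnlip. Cel tracked Pnlip most closely, with 0.651 and 0.609 counts of Cel per count of Pnlip in control, and 0.5995, 0.651 and 0.620 in OA-AP. The groups overlapped, with a log2 difference of −0.01 (exact permutation test, two-sided, p = 0.7). Pnliprp1 gave 0.337 and 0.301 counts per count of Pnlip in control, and 0.780, 0.823 and 0.589 in OA-AP, a log2 difference of 1.18. Pla2g1b went the other way, from 0.0321 and 0.0336 in control to 0.0179, 0.0155 and 0.0185 in OA-AP, a log2 difference of −0.93. Pnliprp2 gave 0.0799 and 0.0730 in control, and 0.0999, 0.105 and 0.102 in OA-AP, a log2 difference of 0.42. For Pnliprp1, Pla2g1b and Pnliprp2 the groups did not overlap. The exact permutation p was 0.1, the smallest that 2 against 3 samples can give, with an adjusted p of 0.267 over 8 ratios. Relative to the median gene the log2 change of Pnlip itself was −1.66 with TMM, so a gene moving with the median would rise against Pnlip. The rises of Pnliprp1 and Pnliprp2 were smaller than that. How many of all tested genes separated the groups by this ratio was not counted.

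Colipase varied against its partner enzyme in OA-AP, with 0.307, 0.385 and 0.239 counts per count of Pnlip against 0.379 and 0.364 in control (log2 difference −0.29, exact permutation p = 0.4). Amy2b gave 0.263 and 0.242 counts per count of Pnlip in control and between 0.294 and 0.467 in OA-AP, without overlap, a log2 difference of 0.54 (exact permutation p = 0.2). For Amy1 the log2 difference was 1.79, also without overlap (exact permutation p = 0.2). For Amy2a5 it was 0.26, with overlap (exact permutation p = 0.7). With 2 against 3 samples this exact test cannot give a p under 0.05.

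**Figure D4:**
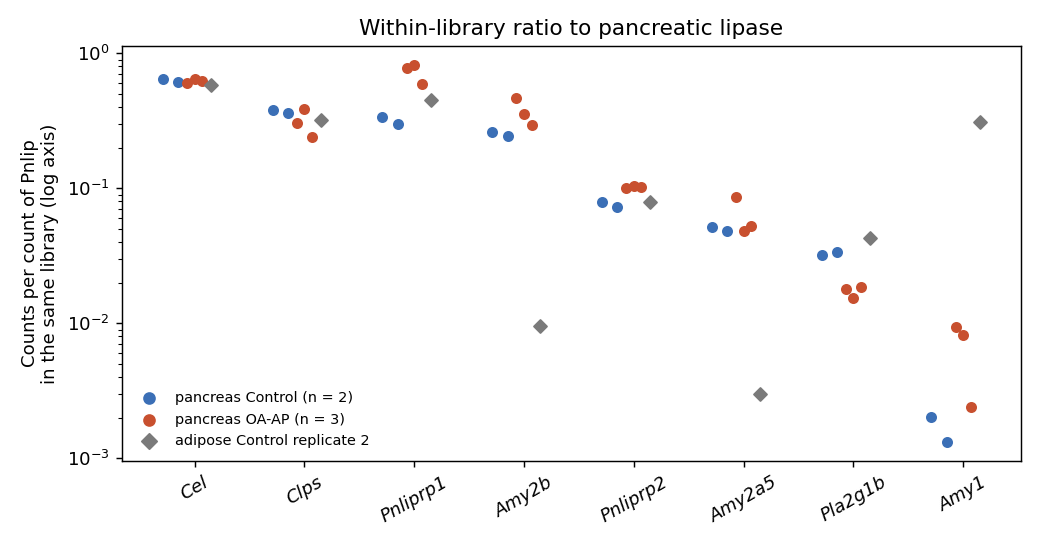
Counts of each gene per count of Pnlip in the same library (log axis) for pancreas Control (blue, n = 2), pancreas OA-AP (orange, n = 3) and adipose Control replicate 2 (grey diamond). Cel lies between 0.585 and 0.651 in all 6 libraries, Pnliprp1 between 0.301 and 0.337 in pancreas Control and between 0.589 and 0.823 in OA-AP, and the adipose library has 0.00960 for Amy2b against at least 0.242 in pancreas.

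By level per length in control pancreas, the order was Pnlip (40727 CPM per kb), Clps (36757), Cel (18087), Pnliprp1 (11881), Amy2b (9683), Pnliprp2 (2947), Pla2g1b (2788), Amy2a5 (765) and Amy1 (29.3). These levels use library totals and the deposited gene lengths. Pnliprp2 and Pla2g1b were neighbours whose control libraries overlapped, at 2921 and 2973 against 2621 and 2955 CPM per kb, whereas the other neighbours did not overlap. In OA-AP pancreas Pnlip remained first, at 21800 ± 1423 CPM per kb, and its range overlapped that of Clps (16628 ± 4981), which overlapped that of Pnliprp1 (14707 ± 3326). Pla2g1b was at 784 ± 25.8 CPM per kb there.

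Of 19 other secreted acinar enzymes, all tested, 11 were called lower and 1 higher (13.5% and 16.2% of all tested genes), with a median log2 fold change of −1.20 against 0.04 for the median tested gene. Scaled by totals 5 were called lower and 2 higher, with a median of −0.48 against 0.75, where 3.93% of all genes were called lower and 45.4% higher. Among those with the smallest p were the elastase Cela2a (−1.39, SE 0.17) and the carboxypeptidase Cpa1 (−1.31, SE 0.18). The 1 called higher was Ctsl, a lysosomal protease that many cells make (1.55, SE 0.24), named here after its value was seen. Of 8 granule proteins, 3 were called lower, including the protease inhibitor Serpini2 (−3.40, SE 0.28) and the granule lectin Zg16 (−1.96, SE 0.24), and 2 higher, including the scavenger receptor-domain protein Dmbt1 (1.62, SE 0.19). Outside the rule for named genes these counts also hold Spink1, a trypsin inhibitor (−1.10), and Cuzd1 (0.83). Scaled by totals, 2 granule proteins were called lower and 3 higher. As a sum the 8 granule proteins took a larger share in every OA-AP library, between 5.73% and 5.98% against 3.39% and 3.42% in control.

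Of the 11 tested acinar transcription regulators, 4 were called lower and 1 higher (13.5% and 16.2% of all tested genes), with a median log2 fold change of −0.02. Rbpjl, a subunit of the acinar PTF1 complex, was at 729 CPM in control and 105 CPM in OA-AP with TMM scaling (log2 fold change −2.79, SE 0.20, edgeR adjusted p = 0.000114). Bhlha15, which drives the secretory architecture of acinar cells, was at −2.74 (SE 0.32) and Gata4 at −0.81 (SE 0.13). The remaining 2 calls, named after their values were seen, were Foxa2, lower at −1.22, and the unfolded protein response factor Xbp1, higher at 0.97. Scaled by totals, 2 regulators (Rbpjl and Bhlha15) were called lower and 6 higher, beside 3.93% and 45.4% of all tested genes.

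Enzymes of fat breakdown outside the acinar granule were counted in the same way. Of 9 tested genes of intracellular lipid hydrolysis, 5 were called higher and 2 lower (16.2% and 13.5% of all tested genes), with a median log2 fold change of 1.01. The 3 with the smallest p were monoglyceride lipase Mgll (1.62, SE 0.13), diacylglycerol lipase Dagla (−1.62, SE 0.20) and hormone-sensitive lipase Lipe (1.25, SE 0.18). The other calls, named after their values were seen, were Pnpla2 (2.80), Abhd6 (1.28) and Abhd5 (1.01), which were higher, and Ces1d (−1.38), which was lower. By library totals, which also raised the median gene by 0.75, summed adipocyte markers were at 19.03 to 26.5 CPM in control pancreas. They were at 45.7 to 78.1 CPM in OA-AP. Of these 7 markers 1 passed the filter on low counts, and with TMM it was not called (0.64). Their part in these values was not tested. Of 10 tested genes among the other lipase family and secretory phospholipases, 2 were called lower, Pla2g12a (−1.14, SE 0.14) and lipoprotein lipase Lpl (−1.73, SE 0.23), and 2 higher, Lipe and Liph (1.56, SE 0.39), the last named after its value was seen. These counts are close to the shares over all tested genes.

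The sequence before the transcription start is shown for Pnlip, for Cel, whose ratio to Pnlip overlapped between groups, and for Pnliprp1, whose ratio did not. Each run is the 250 bases before the start from the RefSeq promoter table (GRCm38.p6), in the direction of the gene: chr19:58670115-58670364 (plus) for Pnlip, chr2:28563404-28563653 (minus) for Cel and chr19:58728637-58728886 (plus) for Pnliprp1. Capitals mark matches, on either strand, to the E-box CANNTG, the RBPJL box TGGGAA and the NR5A2 core AAGGTCA, motifs of factors known to act on acinar genes.
Pnlip: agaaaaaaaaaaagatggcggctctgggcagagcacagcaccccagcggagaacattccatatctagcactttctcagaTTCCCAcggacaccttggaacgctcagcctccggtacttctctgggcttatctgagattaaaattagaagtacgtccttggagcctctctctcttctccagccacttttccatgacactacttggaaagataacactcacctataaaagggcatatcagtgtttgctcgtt
Cel: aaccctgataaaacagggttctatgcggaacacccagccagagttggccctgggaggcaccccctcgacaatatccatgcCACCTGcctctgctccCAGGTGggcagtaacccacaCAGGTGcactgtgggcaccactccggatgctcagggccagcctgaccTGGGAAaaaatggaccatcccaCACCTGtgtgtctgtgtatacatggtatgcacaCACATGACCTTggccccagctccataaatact
Pnliprp1: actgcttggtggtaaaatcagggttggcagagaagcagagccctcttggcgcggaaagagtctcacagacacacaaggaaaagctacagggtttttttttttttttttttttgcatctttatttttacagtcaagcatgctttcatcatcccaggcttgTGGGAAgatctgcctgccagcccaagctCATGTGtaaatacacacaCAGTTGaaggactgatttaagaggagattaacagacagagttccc

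Cel held 5 E-boxes, 1 RBPJL box and 1 NR5A2 core, the last overlapping the E-box nearest the start. Pnliprp1 held 2 E-boxes and 1 RBPJL box, and Pnlip 1 RBPJL box, 171 bases before the start. Promoters were in the table for 8 of the 9 genes (not Clps). Amy2b and Amy2a5 each had 1 E-box, in both genes 132 bases before the start, Pnliprp2 had 1 E-box, Amy1 had an RBPJL box in 1 of its 2 promoters, and Pla2g1b had 0 matches. Of all 32851 promoters of this length, 66.2% held an E-box, 21.6% an RBPJL box and 4.08% an NR5A2 core. A match is a run of letters and was not tested as a binding site.

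In adipose tissue Amy1 took between 95.6% and 100% of the counts of the 8 amylase genes in each library. It gave 4987, 5729 and 6982 counts in control, and 3670, 4269 and 3822 in OA-AP, which is 221 ± 32.5 CPM against 196 ± 7.99 CPM with TMM scaling (SD, n = 3 each). The groups overlapped, and the log2 fold change of −0.18 (SE 0.13) was not called (edgeR adjusted p = 0.318; unadjusted p = 0.216). Leaving out each library in turn gave values from −0.28 to −0.10 and 0 calls, and without Control replicate 2 the value was −0.10 (adjusted p = 0.651). Of the 15839 adipose genes tested, 25.1% were called in either direction. With library totals alone the log2 fold change was −0.33 (adjusted p = 0.0902). Per length Amy1 was at 67.4 ± 9.89 CPM per kb in control adipose tissue and 29.3 ± 7.31 CPM per kb in control pancreas, from tables that were made separately, so no test was run between them. The overlapping gene Rnpc3 gave between 13.97% and 18.9% as many counts as Amy1 in adipose tissue, and its part in the Amy1 counts was not tested.

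The other 8 genes were found in adipose tissue almost only in Control replicate 2, and none of them passed the filter on low counts with all 6 libraries. That library had 18447 counts of Pnlip, 10786 of Cel, 8362 of Pnliprp1, 5874 of Clps, 1468 of Pnliprp2, 795 of Pla2g1b, 177 of Amy2b and 55 of Amy2a5. In the other 5 libraries the highest count of any of these genes was 15, for Pnlip in Model replicate 3, and Amy2b and Amy2a5 were at 0 in all 5, where a count of 0 allows up to 3 counts per library. The 6 lipase, colipase and phospholipase genes held 0.203% of Control replicate 2. Amy1 was at 254 CPM in that library against 193 and 250 CPM in the other controls by library totals. Control pancreas held only 0.00132 to 0.00204 counts of Amy1 per count of Pnlip. At that ratio no visible rise of Amy1 could go with 18447 counts of Pnlip, so its level is no contrast with the lipases. No adipose difference between groups is read from these 8 genes, since 1 library decides it.

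**Figure D5:**
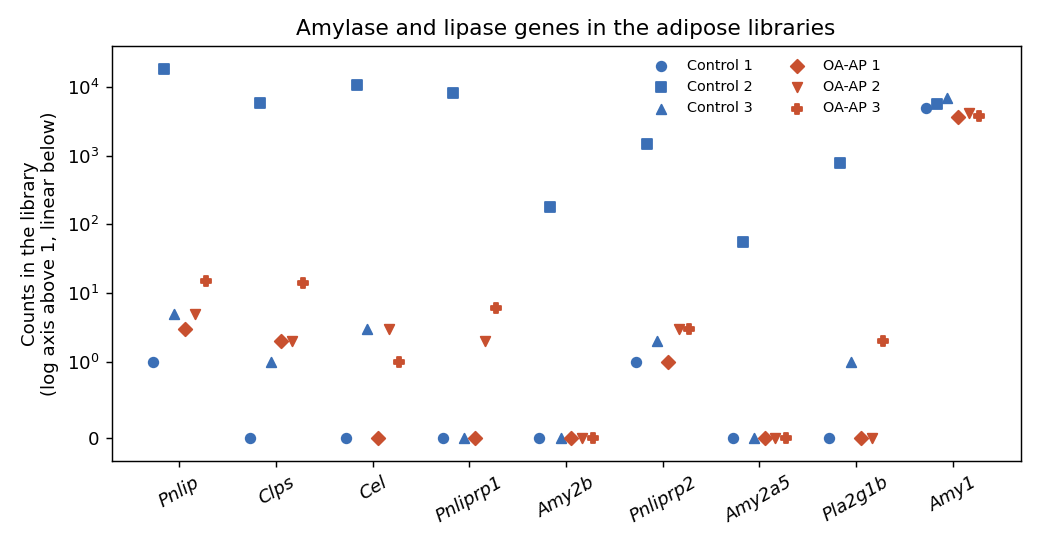
Counts of each gene in the 6 adipose libraries (log axis above 1, linear below; blue, Control; orange, OA-AP; 1 symbol for each library). Only Amy1 exceeds 15 counts in every library, at 3670 to 6982, and Control replicate 2 (blue squares) is the 1 library with more than 15 counts of any other gene.

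The lipases of adipose Control replicate 2 had pancreas-like proportions and its amylases did not. Per count of Pnlip it held 0.585 counts of Cel, 0.318 of Clps, 0.0796 of Pnliprp2, 0.453 of Pnliprp1 and 0.0431 of Pla2g1b. The control pancreas libraries ranged from 0.609 to 0.651 for Cel, 0.364 to 0.379 for Clps, 0.0730 to 0.0799 for Pnliprp2, 0.301 to 0.337 for Pnliprp1 and 0.0321 to 0.0336 for Pla2g1b, so that these ratios lay between 0.857 and 1.42 times the control pancreas mean. For Amy2b the ratio was 0.00960, 26.4-fold below control pancreas, and for Amy2a5 it was 0.00298, 16.9-fold below. Amy2a1 had 33 counts, and Amy2a2, Amy2a3 and Amy2a4 had 0 in every adipose library. This is the comparison of 1 library with no replicate. The adipose and pancreas tables list different numbers of genes, and how the counting treated reads that fit several genes is not given in the sources used here. The part of the counting in the amylase gap was not tested.

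The genes with profiles most like each enzyme over the 11 libraries were mostly other acinar products. Likeness was the root mean square difference between log2 CPM profiles centred on each gene's mean, searched over 12656 genes, and the profiles are shaped by the gap between tissues and by adipose Control replicate 2. The nearest to Pnlip was the trypsinogen Try5 (0.41), to Pnliprp1 the secreted lectin Reg1 (0.49), to Pnliprp2 the chymotrypsin-like protease Ctrl (0.45), to Cel the ribonuclease Rnase1 (0.56), to Clps the granule protein Sycn (0.78) and to Pla2g1b the trefoil factor Tff2 (0.40). Amy2a5 lay nearest to its near-copy Amy2a1 (0.49). Amy2b had no gene as close, with Sycn at 1.16, and Amy1 was nearest to the zinc finger gene Zfp235 (0.26).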

How the data were processed

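The authors trimmed reads with Trim Galore 0.6.6, checked them with fastp 0.20.1, mapped them to GRCm38 with STAR and counted them with featureCounts 2.0.1, and deposited unnormalized counts per gene for each library. The annotation release, the strand setting and the handling of reads that match several genes are not given in the sources used here. Gene lengths are those the authors deposited beside the pancreas counts, and they were used for both tissues.

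Genes with low counts were removed with filterByExpr, libraries were scaled with TMM, and the 2 tissues were fitted separately with edgeR 4.0.16 (quasi-likelihood, robust; R 4.3.3), adjusted by Benjamini-Hochberg over all genes tested. A call needed an adjusted p under 0.05 and a fold change of 1.5. The SE is the log2 fold change over the square root of F. DESeq2, which the study used in an earlier version, was an alternative (1.42.0). The procedure was tested on simulated data. In the pancreas it found 54 of 100 genes changed 2-fold and 86 of 100 changed 4-fold, with 10 false calls. In adipose tissue it found 80 and 98 of 100, with 10 false calls. The pancreas run held 12669 genes with 100 changed at each fold, while 3834 pancreas genes were called in the data. How many false calls the procedure makes when that many genes differ was not tested. Ratios within a library were compared by a two-sided exact permutation test over samples. Shares are counts over the library total, with exact binomial intervals that cover counting error only, since PCR copies of a molecule cannot be recognised in these reads. The edgeR p-values set a difference against the spread between these samples, estimated with information shared across genes. Those of the permutation test rest only on the arrangements of 2 against 3 samples. Transcript identity came from local alignments of GENCODE transcripts, and protein sequences were not used here.

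The 9 genes, the gene lists and the rule for named genes (the 9 genes, the other amylase genes, the 3 genes with the smallest p in each list, and the nearest profiles) were chosen with earlier results of these data known. A gene that this rule names is not reported here. Library totals were 14188832 to 17238919 counts in the pancreas and 20825177 to 27928097 in adipose tissue. Alternatives were other scalings, DESeq2, other filters and fold thresholds, a replicate block and each library left out.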

Additional observations from a re-analysis of the deposited data

How the results depend on the processing

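The 7 lower calls in the pancreas were made under every other scaling except library totals alone, under DESeq2, under both other filters and under both other fold thresholds. With library totals alone 4 of the 9 genes were called, and Pnliprp1 changed direction, to 0.31. Over all genes, that scaling called 6349 pancreas genes in place of 3834 (5843 higher and 506 lower against 2090 and 1744), and a fold threshold of 2 called 2464 in the pancreas and 2228 in place of 3981 in adipose tissue. Leaving out each library in turn called between 6 and 8 of the 9 genes in the pancreas, 0 in adipose tissue, between 1495 and 4265 pancreas genes (1687 without Control replicate 1 and 1495 without Control replicate 2, each leaving 1 control library that is assumed to vary like the others) and between 2865 and 4476 adipose genes (1835 higher and 1729 lower without Control replicate 2). Without Control replicate 2 the call of Amy2b was lost, and without Model replicate 3 Amy1 was called higher. Same-numbered pancreas libraries deviated from their group means with correlations of 0.0015 and −0.041, and same-numbered adipose libraries with −0.0058, 0.056 and −0.163. With 2 pancreas controls the deviations of 1 mirror those of the other, so these values cannot decide whether replicate numbers pair the samples. With the replicate block, 4099 pancreas genes and 3477 adipose genes were called. The 7 lower calls were made and Amy1 was called higher (0.78, edgeR adjusted p = 0.000534). In the pancreas this block sets Model replicate 3 aside, as leaving it out does.

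The OA-AP share of the 9 genes over the control share was 0.634, 0.635 with mitochondrially encoded genes left out of the denominator, 0.532 with the other acinar genes left out, and between 0.595 and 0.682 with each library left out. The log2 difference of the Cel ratio to Pnlip changed sign without pancreas Control replicate 1 (0.034) and without Model replicate 1 (0.014), and ranged from −0.064 to 0.034 with each library left out. Without division by length, 5 of the 9 genes kept their rank in control pancreas. With 2 control pancreas libraries, a missed call for Amy1 or Pnliprp1 does not show that its level was the same.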
